A study of Mus musculus with 42 samples.

Results

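The 10 genes described here serve calcium handling in heart muscle. They encode channels, a pump and an exchanger that move calcium across membranes, or proteins that bind it, anchor these parts or restrain the pump. The genes were chosen by name, with earlier results of these data known. All 10 (*Ryr2*, *Slc8a1*, *Atp2a2*, *Cacna1c*, *Cacna1d*, *Pln*, *Casq2*, *Trdn*, *Jph2* and *Hrc*) were found among the 56953 genes of the count table, and all 10 passed the filter on low counts in every comparison. RNA was sequenced from the left and the right side of the heart field in each of 21 mouse embryos at E8.5i, the looping stage at which the tubular heart bends to one side. The study asked how left-right asymmetry of the heart field varies with laterality when the flow driven by node cilia is absent.

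The labels give 3 groups, and each embryo gave 1 left and 1 right library. The wild types were 5 embryos with rightward looping (4 male, 1 female). The mutants were homozygous for *Ccdc40*lnks, a point mutation that introduces a stop codon in *Ccdc40*, a gene needed for the beating of motile cilia. Of these, 11 embryos looped rightward (6 male, 5 female) and 5 had inverted looping (3 male, 2 female). The labels name no other allele or treatment in any group. Each left or right sample was a piece on one side of the midline, dissected free of the heart tube. It held chiefly the dorsal pericardial wall, the layer from which cells are added to the growing heart, but also tissue reaching caudally to the second somite. The study also sorts these embryos into laterality classes by their expression, a sorting that is not in the labels and was not used here. By that sorting the mutants with rightward looping are a mixed group, so their medians, their spread and each difference from them are those of a mixture.

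In working heart muscle, an action potential opens L-type calcium channels of the cell membrane, and the calcium that enters opens ryanodine receptors on the sarcoplasmic reticulum, the internal calcium store. The released calcium makes the sarcomeres contract, after which a pump returns it to the store and an exchanger carries it out of the cell. In the mouse the first calcium transients and contractions arise in the differentiating muscle of the cardiac crescent and early heart tube, shortly before the stage sampled here.

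The libraries held 36073684 to 62970327 counts (median 43458644). *Ccdc40* was measured at 15.4 to 26.3 CPM (read counts scaled by library size) in the wild-type libraries and at 8.88 to 14.6 CPM in the mutant libraries, without overlap. The 6 second heart field markers summed to 102 to 326 CPM, so the labelled tissue was present. The 16 heart muscle markers summed to 889 to 7994 CPM, so muscle RNA was also present although the heart tube had been removed. In pieces of tissue, fewer muscle cells and less RNA per muscle cell cannot be told apart.

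The promoter windows of 4 members are shown because they pair 2 genes that were right-sided in the mutants with inverted looping (*Slc8a1* and *Cacna1d*) with the 2 members that were not called (*Pln* and *Casq2*). Among windows of right-sided members, those 2 were the ones with a match to either motif capitalised here. Each window runs from 250 bases before to 50 bases after a transcript start in RefSeq (GRCm38.p6), 5′ to 3′ on the strand of the gene. Capitals mark matches on either strand to the TATA box (TATAAA) and to 2 forms of the GATA motif (AGATAA and TGATAA). Other forms of the GATA motif were not searched and are not capitalised. Adjoining capitals can hold overlapping matches. The *Slc8a1* window is chr17:81738338-81738637 on the minus strand, the first *Cacna1d* window chr14:30491107-30491406 on the minus strand, the *Pln* window chr10:53337436-53337735 on the plus strand and the *Casq2* window chr3:102086165-102086464 on the plus strand.
Slc8a1: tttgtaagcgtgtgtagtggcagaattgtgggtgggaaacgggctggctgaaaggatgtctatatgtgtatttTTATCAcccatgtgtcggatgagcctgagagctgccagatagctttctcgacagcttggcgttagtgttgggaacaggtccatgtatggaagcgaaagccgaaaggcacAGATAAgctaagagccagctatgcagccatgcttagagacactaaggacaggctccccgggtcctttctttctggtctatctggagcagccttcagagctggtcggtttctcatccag
Cacna1d: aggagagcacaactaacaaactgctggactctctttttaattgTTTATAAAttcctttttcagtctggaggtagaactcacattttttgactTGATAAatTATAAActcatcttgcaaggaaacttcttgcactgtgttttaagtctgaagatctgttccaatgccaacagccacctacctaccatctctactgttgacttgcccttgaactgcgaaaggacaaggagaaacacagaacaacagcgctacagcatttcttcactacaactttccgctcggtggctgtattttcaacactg
Pln: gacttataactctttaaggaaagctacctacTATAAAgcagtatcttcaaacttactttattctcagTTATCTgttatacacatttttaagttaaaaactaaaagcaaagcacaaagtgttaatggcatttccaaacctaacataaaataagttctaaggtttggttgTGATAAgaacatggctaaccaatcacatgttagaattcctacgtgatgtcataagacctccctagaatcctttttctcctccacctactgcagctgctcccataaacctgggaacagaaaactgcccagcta
Casq2: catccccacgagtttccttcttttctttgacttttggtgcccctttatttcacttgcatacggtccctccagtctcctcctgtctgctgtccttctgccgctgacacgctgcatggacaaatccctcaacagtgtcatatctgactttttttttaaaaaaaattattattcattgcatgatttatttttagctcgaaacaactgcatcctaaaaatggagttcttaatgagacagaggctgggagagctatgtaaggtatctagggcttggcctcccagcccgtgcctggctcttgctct

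Windows were matched for 8 of the 10 members, 12 windows in all, and *Atp2a2* and *Trdn* had none. In the 2 forms searched, the GATA motif matched in the *Slc8a1* window (2 matches), the first *Cacna1d* window (1 match) and the *Pln* window (2 matches). In these forms it was in 18.5% of all 32544 windows of this length. TATAAA, the letters of the TATA box, was found in the first *Cacna1d* window and in the *Pln* window, against 13.6% of all windows. Matches anywhere in a window were counted. They began at offsets of -207, -205 and -150 bases from the start site in *Cacna1d* and of -219 in *Pln*. Neither TATAAA nor the 2 searched GATA forms were found in the windows of *Ryr2*, *Cacna1c*, *Jph2*, *Hrc* and *Casq2* or in the other *Cacna1d* window. No window of a member held CTA and TAG with 4 bases between them (in 3.70% of all windows), the 1 MEF2 motif form searched. None held TNAAGTG, the letters bound by NKX2-5, which were in 11.5% of all windows. The E-box (CANNTG) was found in windows of 8 members, in each of their 12 windows except the first of *Cacna1d*. It was in 72.3% of all windows and is not capitalised above. Matches occurred both in right-sided members and in *Pln*, which was not called, and a match describes letters only.

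Levels between genes were compared in TPM, which divides counts by exon length and scales each library to the same total. *Atp2a2*, the SERCA2 pump that refills the store, was highest at 57.3 ± 10.6 TPM (mean ± SD, n = 42 libraries) and stood above every other member in 42 of 42 libraries. *Hrc*, a histidine-rich protein that binds calcium within the store, followed at 12.98 ± 5.49 TPM, and *Slc8a1*, the sodium-calcium exchanger NCX1, at 10.6 ± 4.91 TPM. The order of these 2 held in 38 of 42 libraries.

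*Cacna1d* (5.21 ± 2.19 TPM), *Jph2* (4.49 ± 1.70) and *Ryr2* (3.98 ± 1.48) formed a middle range whose members were within the spread of each other. *Cacna1d* was above *Jph2* in 30 of 42 libraries and *Jph2* above *Ryr2* in 27 of 42. *Cacna1c* lay lower at 1.81 ± 0.641 TPM and was below *Ryr2* in 40 of 42 libraries.

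The lowest members were *Trdn* (0.692 ± 0.499 TPM), *Casq2* (0.595 ± 0.401) and *Pln* (0.428 ± 0.124), each above the next in 25 of 42 libraries, so their order was not separated from the spread. *Pln* had between 12 and 40 counts in each library and *Casq2* between 5 and 118, and single libraries of *Trdn* fell to 5 counts. Counting error weighs more on values from so few counts, and its share of the spread was not measured. The pump was thus at the top of the list, with triadin (*Trdn*), the main cardiac calcium buffer of the store (*Casq2*) and the pump's inhibitor phospholamban (*Pln*) at the bottom.

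**Figure D1:**
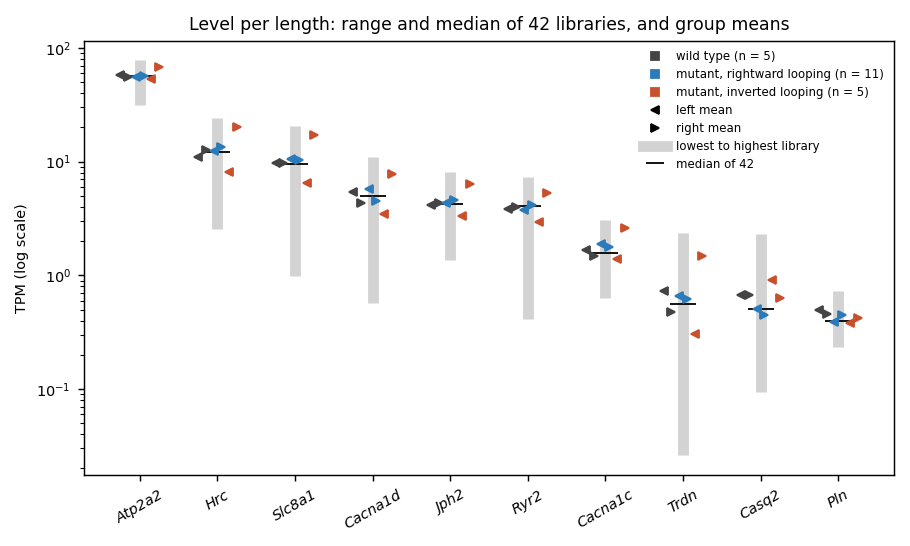
Level of each gene in TPM (log scale). Grey bars span the lowest to the highest of 42 libraries, black dashes are medians, and triangles are group means of the left (pointing left) and right (pointing right) libraries; *Atp2a2* is highest and the inverted group's right mean lies above its left mean for 9 genes, all but *Casq2*.

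For 6 members the count could include reads of an overlapping gene, or lack reads that fell on both, since the library kit does not mark strand and the counting setting is not given in the sources used here. Either would shift the levels of these members. Opposite-strand gene models covered 26.2% of the exon bases of *Atp2a2* (Gm43361), 43.6% of *Pln* (Gm47644) and 9.7% of *Cacna1d* (*Chdh*). The share was 5.6% or less for single overlaps of *Trdn*, *Ryr2* and *Slc8a1*, and *Cacna1c*, *Casq2*, *Jph2* and *Hrc* had none.

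Right was then compared with left within each group, with the embryo as a block (edgeR's quasi-likelihood test, Benjamini-Hochberg adjustment over all genes tested). In mutants with inverted looping, 8 of the 10 genes were higher on the right, while none was called in wild types or in mutants with rightward looping. Over all genes tested in the inverted group, 2.04% were called in either direction and 1.72% were higher on the right. The members were chosen with earlier results of these data known, so these shares are no independent test of the list. *Pln* and *Casq2* were the 2 members not called. The median log2 fold change, right over left, was 0.92 over the 10 members and -0.005 over all 22960 genes.

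**Figure D2:**
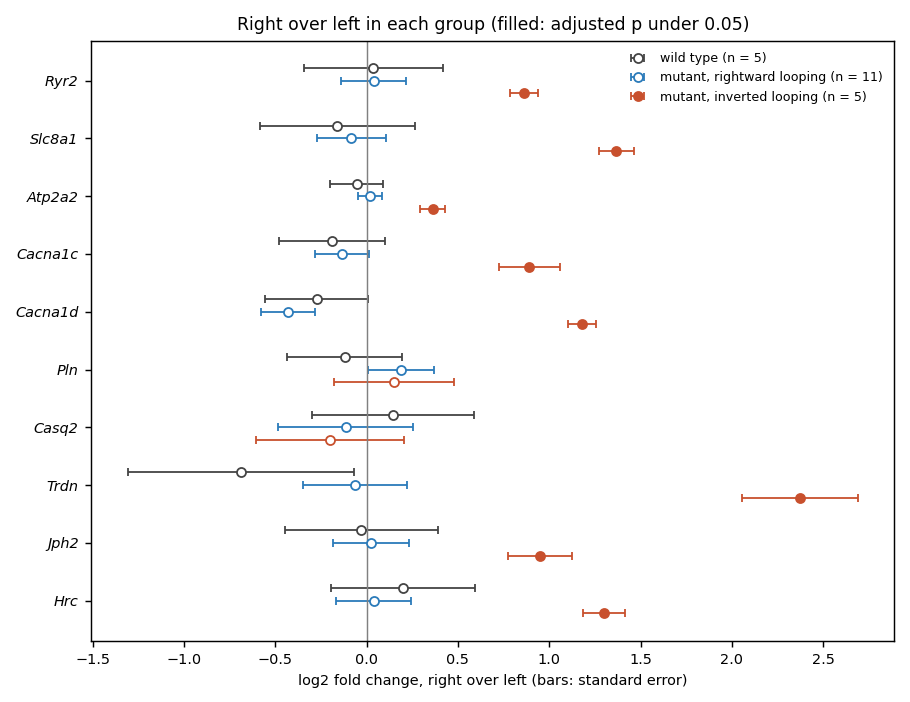
Log2 fold change, right over left, of each gene in each group, with bars of 1 standard error; filled points have an adjusted p under 0.05. In the inverted group 8 genes lie between 0.36 and 2.37, while the points of wild types and mutants with rightward looping are all open.

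Per-embryo values of the inverted group are given below in the embryo order 2_7, 4_6, 10_3, 18_2 and 32_2. Among genes of release from the store, *Ryr2* (chr13:11567988-12121870, minus strand, GRCm39) encodes the ryanodine receptor of heart muscle. Its CPM in this group were 17.8, 20.4, 14.3, 21.96 and 16.4 on the left and 29.5, 36.5, 25.5, 37.8 and 35.9 on the right. Every right library was above every left library, and the log2 fold change was 0.86 ± 0.08 (SE), or 1.82-fold (adjusted p = 0.0036).

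*Trdn* (chr10:32956550-33356376, plus strand) encodes triadin, which anchors calsequestrin to the ryanodine receptor. Its CPM were 2.38, 1.53, 0.242, 1.32 and 1.14 on the left and 6.26, 8.95, 3.003, 4.15 and 9.89 on the right. Left and right did not overlap, and *Trdn* had the largest fold change of the members, 2.37 ± 0.32 on the log2 scale or 5.18-fold (adjusted p = 0.011). Its left value in embryo 10_3 rested on 11 counts, and the fold in single embryos ran from 2.61 to 10.6.

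*Hrc* (chr7:44984681-44988401, plus strand) had CPM of 5.19, 4.52, 3.298, 4.598 and 4.13 on the left and 11.03, 11.8, 7.41, 11.1 and 12.6 on the right. The 2 sides did not overlap, and the log2 fold change was 1.30 ± 0.11 (2.46-fold, adjusted p = 0.0033). *Jph2* (chr2:163178162-163239920, minus strand) encodes junctophilin 2, which holds the cell membrane and the store close together. Its CPM were 6.35, 6.25, 3.34, 4.498 and 3.26 on the left and 8.55, 10.3, 5.56, 11.8 and 9.21 on the right. The right was higher within each of the 5 embryos, but the sides overlapped between embryos (log2 fold change 0.95 ± 0.18, adjusted p = 0.037).

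*Casq2* (chr3:101993234-102056307, plus strand) encodes calsequestrin 2, which binds calcium in the store. Its CPM were 1.11, 2.73, 0.286, 0.575 and 0.668 on the left and 0.675, 0.778, 0.591, 0.768 and 0.907 on the right. The high left value of embryo 4_6 rested on 118 counts. Right was higher in 3 of 5 embryos, and the log2 fold change was -0.20 ± 0.41 (adjusted p = 0.88).

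For return to the store, *Atp2a2* (chr5:122591575-122640903, minus strand) had CPM of 139, 162, 113, 145 and 107 on the left and 159.6, 196, 147, 178 and 169.7 on the right. The right was higher in each embryo, by 1.15- to 1.59-fold, with overlap between embryos. Its log2 fold change, 0.36 ± 0.07 (adjusted p = 0.038), was the smallest of the 8. Its inhibitor *Pln* (chr10:53199622-53223512, plus strand) had CPM of 0.598, 0.324, 0.616, 0.475 and 0.371 on the left and 0.518, 0.5, 0.295, 0.696 and 0.664 on the right, was higher on the right in 3 of 5 embryos and was not called (log2 fold change 0.15 ± 0.33, adjusted p = 0.89).

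For entry through the cell membrane, *Cacna1d* (chr14:29761896-30213412, minus strand) encodes the L-type channel Cav1.3, which is known for its part in pacemaker cells. Its CPM were 11.1, 12.5, 7.102, 12.9 and 10.9 on the left and 26.2, 29.6, 16.4, 26.7 and 24.3 on the right. The sides did not overlap, and the ratio was alike in all 5 embryos, from 2.07- to 2.36-fold (log2 fold change 1.18 ± 0.07, adjusted p = 0.0025).

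*Cacna1c* (chr6:118564201-119173851, minus strand) encodes Cav1.2, the main L-type channel of working heart muscle. Its CPM were 8.902, 6.42, 6.18, 4.65 and 5.66 on the left and 13.9, 14.2, 7.21, 10.4 and 13.7 on the right. Right exceeded left in all 5 embryos, by 1.17- to 2.41-fold, with overlap between embryos (log2 fold change 0.89 ± 0.17, adjusted p = 0.037). The exchanger *Slc8a1* (chr17:81680534-82045891, minus strand) had CPM of 27.3, 29.2, 17.1, 25.5 and 26.8 on the left and 58.3, 77.3, 36.97, 81.5 and 78.4 on the right. Its sides did not overlap, and its log2 fold change was 1.37 ± 0.10 (2.58-fold, adjusted p = 0.0025).

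All 8 called genes were higher on the right in 5 of 5 embryos. The exact two-sided sign-flip test over the embryos' log2 ratios gave p = 0.0625 for each, which is the smallest value that 5 embryos allow. Counted by embryo, 8, 9, 9, 10 and 10 of the 10 members were higher on the right. The call of 8 fell to 4 to 6 when 1 embryo was left out, to 2 in the 3 males alone (*Slc8a1* and *Cacna1d*), to 5 without the embryo as a block and to 2 (*Cacna1d* and *Trdn*) when the spread was estimated over all 42 libraries, with each of the 8 higher on the right throughout. Leaving out 32_2 left 4 (*Ryr2*, *Slc8a1*, *Cacna1d* and *Hrc*), leaving out 4_6 or 18_2 left 5, and leaving out 2_7 or 10_3 left 6.

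**Figure D3:**
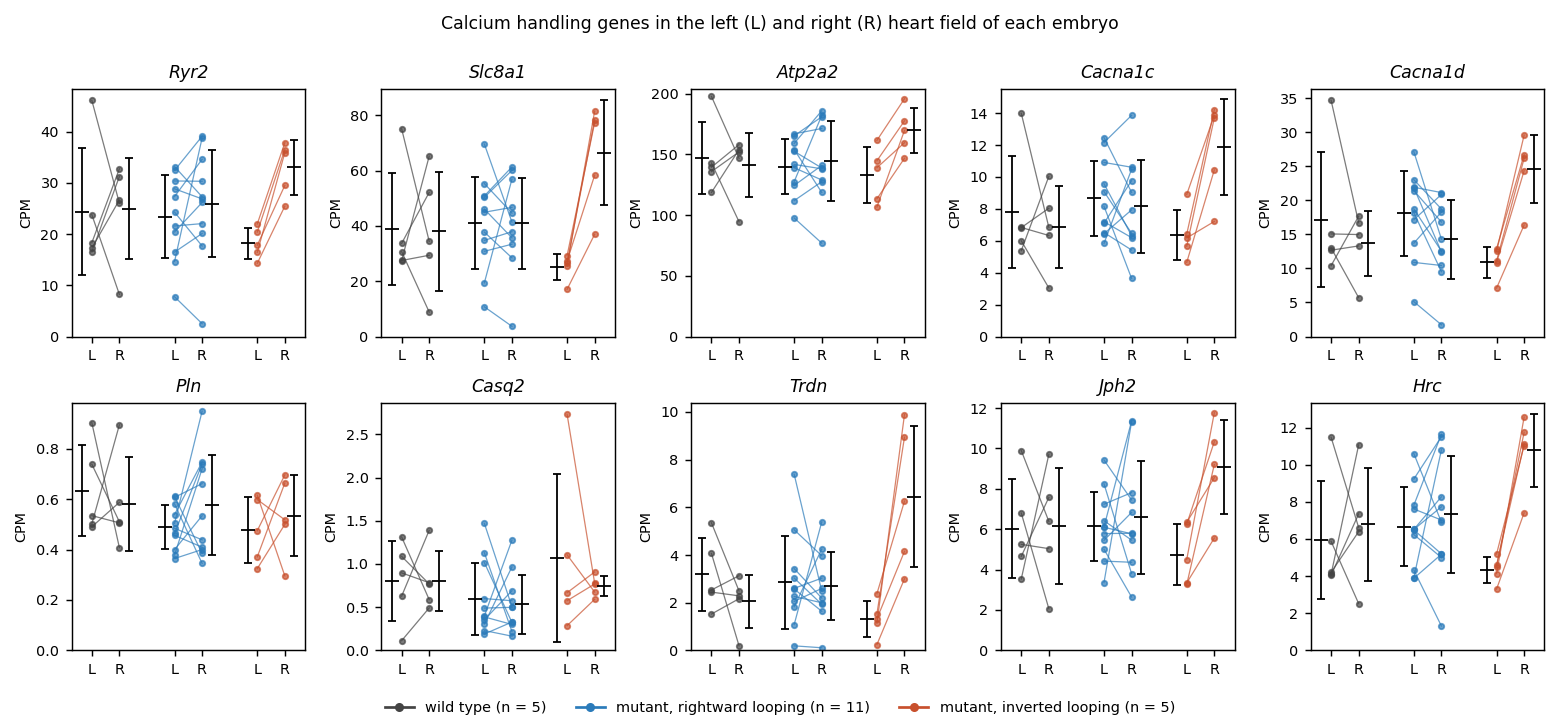
CPM of each gene in the left (L) and right (R) library of each embryo, joined by a line, with the mean and SD of each side as black bars. In the inverted group the lines of 8 genes rise in 5 of 5 embryos, whereas in the other groups lines run both ways.

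Wild types showed no common direction. In edgeR none of 23182 genes was called (0%), while 639 had an unadjusted p under 0.05 (none of them a member) and DESeq2 called 19 genes but no member, and the members' median log2 fold change was -0.09 (-0.38 to 0.10 when 1 embryo was left out). In the embryo order 7_1, 8_1, 10_1, 17_7 and 22_4, the CPM of *Ryr2* were 17.3, 46.1, 23.8, 18.3 and 16.5 on the left and 26.7, 26.02, 8.22, 32.7 and 31.2 on the right. Embryos 8_1 and 10_1 were higher on the left and the other 3 on the right.

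The CPM of *Slc8a1* were 27.5, 75.1, 30.7, 33.7 and 27.4 on the left and 29.4, 34.4, 8.84, 52.1 and 65.2 on the right. The CPM of *Cacna1d* were 15.1, 34.7, 13, 12.7 and 10.4 on the left and 14.97, 16.7, 5.704, 13.3 and 17.7 on the right. For *Slc8a1* the same 2 embryos were higher on the left, and for *Cacna1d* 7_1 was as well, by a small margin. The CPM of *Trdn* were 2.44, 5.35, 4.07, 1.52 and 2.53 on the left and 2.29, 2.495, 0.192, 2.17 and 3.13 on the right, where the right value of embryo 10_1 rested on 8 counts. Over the 10 genes, 9 were higher on the right in 17_7 and in 22_4, 4 in 7_1, and 1 in each of 8_1 and 10_1, although all 5 embryos looped rightward. The adjusted p was 1.00 for each gene, and log2 fold changes lay between -0.69 ± 0.62 (*Trdn*) and 0.20 ± 0.40 (*Hrc*).

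Mutants with rightward looping also spread in both directions. Of 22795 genes 6 were called (0.0263%, and 2 to 8 genes when 1 embryo was left out), none a member. The members' median was -0.02, and it ran from -0.11 to 0.075 when 1 embryo was left out. In the 11 embryos, *Ryr2* had 7.77, 24.3 and 33.2 CPM on the left (lowest, median and highest) and 2.51, 26.9 and 39.1 CPM on the right. *Slc8a1* had 10.8, 44.9 and 69.6 CPM on the left and 3.69, 41.4 and 61.3 CPM on the right. The ranges of both sides overlapped, and the lowest value on each side came from the same embryo, 2_2.

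*Cacna1d* was the member nearest to an asymmetry in this group, toward the left. It had 5.12, 18.7 and 27.1 CPM on the left and 1.73, 14.3 and 21.1 CPM on the right, and the left was higher in 9 of 11 embryos. Its log2 fold change of -0.43 ± 0.15 had an unadjusted p of 0.012 and an adjusted p of 1.00 in edgeR, and the exact sign-flip test gave p = 0.032, unadjusted for the 10 genes. For the other 9 members the log2 fold change lay between -0.14 and 0.19. Counts of members higher on the right ran from 0 of 10 in embryo 3_7 to 9 of 10 in embryo 19_4.

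The spread between embryos differed in size across the groups. The SD of the *Cacna1d* log2 ratio was 0.08 in the inverted group, 0.59 in mutants with rightward looping and 0.82 in wild types. For *Slc8a1* these were 0.26, 0.76 and 1.25, and for *Ryr2* 0.16, 0.73 and 1.11. These spreads were not tested against each other.

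**Figure D4:**
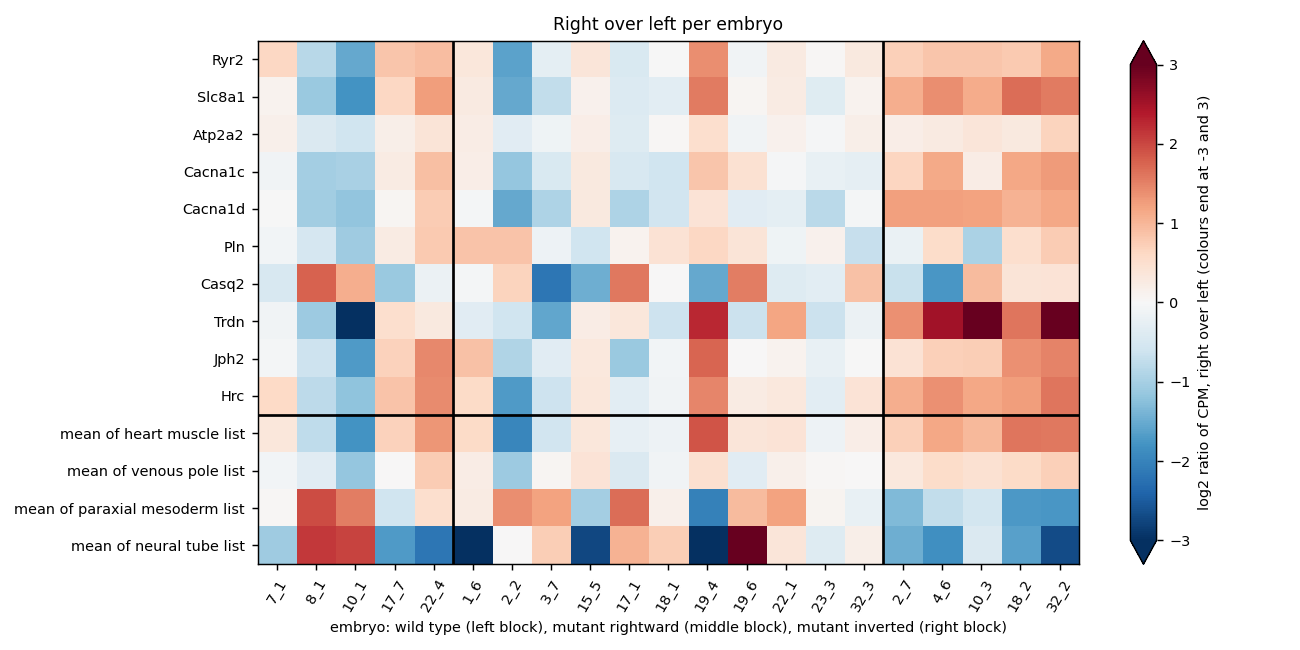
Log2 ratio of CPM, right over left, in each embryo for the 10 genes and, below the line, for the mean of 4 marker lists. Red is higher on the right; the 5 inverted embryos are red for 8 genes and for the heart muscle list and blue for the paraxial mesoderm and neural tube lists, while wild types and mutants with rightward looping hold both colours.

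The difference of asymmetry between groups was tested as an interaction in 1 fit of all 42 libraries. Against mutants with rightward looping, the inverted group had a right-over-left log2 ratio of *Cacna1d* higher by 1.60 ± 0.28, or 3.03-fold (adjusted p = 0.012). *Cacna1d* was the only member called, where 0.311% of 26335 genes (82) were called and 0.292% in the higher direction. That count of genes ran from 18 to 192 when 1 embryo was left out. Without embryo 4_6, 18_2 or 32_2 its adjusted p was 0.053, 0.051 and 0.058, in males alone 0.28 and without the embryo as a block 0.35, at log2 differences of 1.52 to 1.75. The embryos' ratios did not overlap between these groups (1.05 to 1.24 against -1.54 to 0.41), and the exact permutation test gave p = 0.000229, the smallest possible.

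For 7 further members the difference had the same sign and an unadjusted p under 0.05 but was not called, where 10.51% of all genes passed that unadjusted threshold. The exact permutation test gave these 7 unadjusted p-values from 0.000916 (*Trdn*) and 0.00115 (*Slc8a1*) to 0.0323 (*Jph2*), with overlap between the groups. The largest differences were *Trdn* (2.43 ± 0.61, adjusted p = 0.097), *Slc8a1* (1.44 ± 0.39, adjusted p = 0.13) and *Hrc* (1.25 ± 0.39, adjusted p = 0.20). *Cacna1c* had 1.01 ± 0.30 (adjusted p = 0.17), *Jph2* 0.91 ± 0.41, *Ryr2* 0.81 ± 0.36 and *Atp2a2* 0.33 ± 0.14 (adjusted p between 0.40 and 0.43). *Pln* (-0.05 ± 0.36) and *Casq2* (-0.09 ± 0.64) had differences near 0. DESeq2 called 4 members here (*Cacna1d*, *Trdn*, *Slc8a1* and *Cacna1c*). It made more false calls than edgeR on data simulated from edgeR's own fit. In edgeR, *Trdn* was also called without embryo 10_1, and *Trdn* and *Slc8a1* without 19_4. In the main test the difference between the groups was thus called for *Cacna1d* alone. Of 16 heart muscle markers 15 had a difference above 0, with a median of 1.15 over the list, and 14 had an unadjusted p under 0.05 but none was called. The medians of the other lists included -1.80 for paraxial mesoderm, -1.11 for the neural tube and 0.70 for the venous pole, with none called. Their part in the members' difference was not tested.

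Against wild types, the inverted group had no member called, where 0.513% of genes (135, and 17 to 641 when 1 embryo was left out) were. Of the members 6 had an unadjusted p under 0.05, as did 13.55% of all genes. For the 16 heart muscle markers the median difference was 1.19, with 12 at an unadjusted p under 0.05 and none called. The medians were -2.39 for paraxial mesoderm, with *Tcf15* called lower, -1.20 for the neural tube, 0.68 for the venous pole and 0.17 for endothelium, with *Tek* called higher. *Cacna1d* (1.44 ± 0.34, adjusted p = 0.053) and *Trdn* (3.04 ± 0.72, adjusted p = 0.059) came nearest, and for both the embryos' ratios did not overlap (exact permutation p = 0.00794, the smallest possible). DESeq2 called 4 members here, the same as above, and edgeR called 4 without the wild type 22_4 and 2 without the mutant 19_4. Both comparisons share the inverted embryos. Between mutants with rightward looping and wild types no gene was called in edgeR (0%) or in DESeq2, with 800 at an unadjusted p under 0.05 in edgeR and no member among them, and the members' differences lay between -0.26 (*Casq2*) and 0.61 (*Trdn*).

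Levels were also compared between groups within a side, with sex as a covariate. No member was called by edgeR or DESeq2 in any of the 4 comparisons, where 0.0242% and 0.0121% of genes were called on the left (rightward mutants against wild types, and inverted against rightward mutants) and 0.0121% and 0.00805% on the right. On the left, inverted mutants had values below rightward mutants for 9 of 10 members, such as *Hrc* at -0.56 ± 0.22 and *Cacna1d* at -0.65 ± 0.26 (log2, adjusted p = 0.55 for both). On the right they had values above for 9 of 10, such as *Trdn* at 1.34 ± 0.45, *Cacna1d* at 0.86 ± 0.31 and *Cacna1c* at 0.62 ± 0.22 (adjusted p = 1.00 for each). Heart muscle markers had a median of -0.47 on the left (1 of 16 above 0, 7 at an unadjusted p under 0.05) and of 0.59 on the right (15 of 16 above 0, 2 at an unadjusted p under 0.05), and neural tube markers of 1.30 on the left (6 of 6 above 0) and -0.06 on the right, with none called. Their part in the members' levels was not tested. At an unadjusted p under 0.05 there were 5 members on the left (7.89% of all genes) and 4 on the right (4.26% of all genes) in this comparison, and 0 on either side between mutants with rightward looping and wild types.

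Of 54 other genes of calcium cycling and excitation, 51 were tested in the inverted group and 4 were called (2.04% of all genes were), all higher on the right, with a median log2 fold change of 0.17 over those tested. *Casq1*, the calsequestrin best known from skeletal muscle, had 1.40 ± 0.13 (adjusted p = 0.0036). *Hcn4*, the pacemaker channel of the sinus node, had 0.76 ± 0.08 (adjusted p = 0.0054). The channel subunits *Cacnb2* (0.70 ± 0.13, adjusted p = 0.038) and *Cacna2d2* (0.67 ± 0.11, adjusted p = 0.022) accompany L-type channels. At an unadjusted p under 0.05 there were 16 of the list in the inverted group, where 15.1% of all genes passed. None of the list was called by edgeR in wild types (3 at an unadjusted p under 0.05, and 2.76% of all genes), in rightward mutants (5, and 3.59% of all genes) or between the inverted and rightward mutants (15 of 53, and 10.51% of all genes). Between the inverted mutants and wild types, with 16 at an unadjusted p under 0.05 (13.55% of all genes), 1 was called, *Sri*, encoding sorcin, a calcium-binding partner of the ryanodine receptor (0.35 ± 0.08, adjusted p = 0.035).

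Markers of tissues moved with the members in the inverted group. The marker lists, too, were chosen with earlier results of these data known. Of 16 heart muscle genes 14 were called, all on the right, with a median log2 fold change of 1.10. Examples were *Ttn* (1.27 ± 0.08), *Actc1* (1.12 ± 0.08) and *Myl2* (2.88 ± 0.47), all of which encode sarcomere proteins. The summed CPM of the list was 2053 to 3884 on the left and 3708 to 7549 on the right. Of 6 venous pole genes 3 were called on the right, namely *Shox2*, *Tbx5* and *Hcn4*.

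All tested markers of the neural tube and the paraxial mesoderm had higher values on the left. Their median log2 fold changes, right over left, were -1.61 and -1.10. At an unadjusted p under 0.05 in edgeR there were 6 of 6 and 5 of 5, where 15.1% of all genes passed. Of 6 neural tube genes 3 were called, all on the left (*Pax6*, *Nkx6-1* and *Olig2*), and their summed CPM was 51.7 to 89.7 on the left and 11.5 to 50.1 on the right. Of 5 paraxial mesoderm genes tested 1 was called, *Myf5*, on the left, and the summed CPM of that list was 136 to 215 on the left and 76.4 to 138 on the right. No gene of the second heart field, endothelium, blood and foregut lists was called, and their median log2 fold changes were 0.20, 0.18, -0.28 and 0.24. No gene of these lists was at 0 throughout a group. The part of these shifts in the members' asymmetry was not tested.

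Across the 11 mutants with rightward looping, the members' mean log2 ratio followed that of the heart muscle list (Pearson r = 0.944, Spearman rho = 0.973, permutation p = 1e-05 for each, the smallest that 100000 resamples give). Without the 2 embryos farthest from the median, 2_2 and 19_4, r was 0.959. This was the 1 relation tested, so that adjustment leaves these p-values as they are, and both measures come from the same libraries. No correlation was computed in the groups of 5 embryos. In wild types the muscle ratio ran from -1.78 to 1.34 and the members' ratio from -1.31 to 0.80, with the 5 embryos in the same order by both, and in the inverted group from 0.72 to 1.61 and from 0.59 to 1.31.

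**Figure D5:**
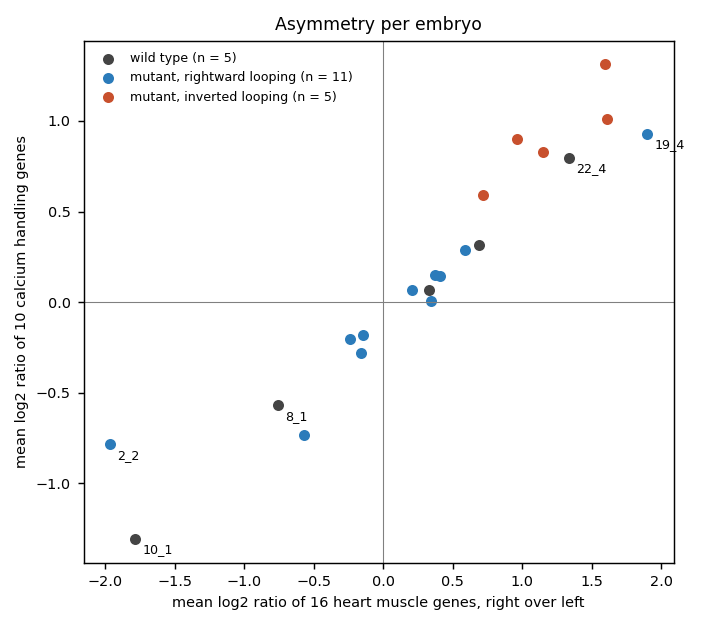
Mean log2 ratio, right over left, of the 10 calcium handling genes against that of 16 heart muscle genes, 1 point per embryo. The 5 inverted embryos lie at 0.72 to 1.61 on the muscle axis and wild types and mutants with rightward looping on both sides of 0.

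Genes outside the members were ranked by likeness of pattern among 15238 genes with a mean of at least 1 CPM. Over 21 embryos, the log2 ratios of *Casq1* (r = 0.984), *Myl9* (0.982), *Cap2* (0.981), *Actn2* (0.979) and *Myom1* (0.978) were most like the members' mean, where the median over all genes was 0.002. Over 42 libraries, the levels of *Sh3bgr* (0.973), *Tnni1* (0.966), *Nexn* (0.962), *Cnn1* (0.960) and *Myl4* (0.960) were most like it. These are descriptions over libraries that share tissue and dissection.

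Levels of the members were also set against each other. Over 42 libraries, the log2 CPM of the 8 genes right-sided in the inverted group correlated with each other at r of 0.72 to 0.96. These 8 are grouped by their shift in 10 of the same libraries, so part of this likeness follows from the grouping. *Pln* had a median r of 0.20 with those 8 and *Casq2* of -0.10. In the log2 ratios over 21 embryos the medians were 0.32 for *Pln* and -0.36 for *Casq2*, 2 genes of low counts.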

How the data were processed

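The authors aligned paired reads to mouse genome GRCm39 with STAR, removed duplicates and counted reads on Ensembl genes with featureCounts (Subread 2.0.6). They deposited raw counts for 56953 genes in 42 libraries without normalization, and the strand setting is not given in the sources used here. Identifiers were named from GENCODE M39, which held 56310 of them. Libraries were made from 10 ng of RNA and amplified by PCR.

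From these counts, edgeR 4.0.16 in R 4.3.3 fitted quasi-likelihood models with TMM normalization after filterByExpr (min.prop 0.2, large.n 50, and minimum counts of 5 per library and 10 in total), and calls were made at a Benjamini-Hochberg adjusted p of 0.05 over all genes tested. Right was compared with left within a group, with embryos as blocks. For differences of asymmetry, side and group interacted in 1 fit of 42 libraries, and levels were compared within a side with sex as a covariate. Log2 ratios used a prior count of 2, CPM the effective library size, and TPM the union of exons. Exact sign-flip and exact permutation tests were two-sided. The fits within each mutant group and of their difference were tested on simulated data, where both edgeR and DESeq2 recovered most changed genes and DESeq2 made more false calls, a larger share than its threshold allows. The simulated counts were drawn from edgeR's fitted means and spread, which can favour edgeR.

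The labels give no batch, and their embryo names give the pairs. Residuals of left and right of an embryo correlated with a median of 0.45 (lowest -0.18) and above 0.1 in 19 of 21 embryos. No library was a copy of another, since any pair of libraries differed by a chi-square of at least 8.75 per gene. Each embryo is 1 animal, so p-values measure the spread between embryos.

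Alternatives were DESeq2 1.42.0, RLE size factors, library size alone, a minimum of 10 counts in each library, no filter, no replicate block, males alone, a fit of all 42 libraries, no sex term, the 2 groups compared only, a prior count of 0.5, and each embryo left out in turn. Named beside the 10 members were, from a list of 54 other calcium cycling and excitation genes, those called in a test of right over left or of its difference, and the 5 genes most like the members in ratio and in level. The members and the lists were chosen with earlier results of these data known. Promoter windows are from RefSeq (GRCm38.p6) and were not compared with GRCm39 positions.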

Additional observations from a re-analysis of the deposited data

Results flagged for a closer look

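In 60 groups of 5 left libraries, right libraries or ratios per gene, 8 values stood apart from the others by Dixon's limit at the 95% level, which chance gives in about 1 of 20 groups. The left library of the wild-type female 8_1 held 5 of them, with 46.1 CPM of *Ryr2* (others 16.5 to 23.8), 75.1 of *Slc8a1* (others 27.4 to 33.7), 13.99 of *Cacna1c* (others 5.38 to 6.84), 34.7 of *Cacna1d* (others 10.4 to 15.1) and 11.5 of *Hrc* (others 4.04 to 5.87). The right library of the wild type 10_1 held 2 low values, 8.22 CPM of *Ryr2* (others 26.02 to 32.7) and 94.5 CPM of *Atp2a2* (others 147 to 158). The summed CPM of heart muscle markers was 6936 in the left library of 8_1 (others 2981 to 4385) and 1515 in the right library of 10_1 (others 4204 to 5720), where neural tube markers summed to 162 (others 13.67 to 49.5). Their part in these values was not tested. In the inverted group, the log2 ratio of *Ryr2* was 1.13 in embryo 32_2, against 0.73 to 0.84 in the others.

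The asymmetry of *Cacna1d* differed between mutants with inverted and rightward looping by 1.60 on the log2 scale, in the test of the difference itself.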

How the results depend on the processing

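In the inverted group the 8 right-sided members remained called under DESeq2, RLE size factors, library size alone and both other filters, and 4 to 6 were called when 1 embryo was left out. Males alone gave 2, the test without the replicate block 5 and the fit of all 42 libraries 2, with each of the 8 higher on the right in every alternative. The difference between inverted and rightward mutants, with 1 member called, gave 4 in DESeq2, 2 with no filter on low counts, 0 in males alone, 0 without the replicate block, and 0 to 3 when 1 embryo was left out. The difference between inverted mutants and wild types, with 0 called, gave 4 in DESeq2, 2 with no filter, 1 with RLE size factors, 1 with at least 10 counts in every library, and 0 to 4 when 1 embryo was left out. The cause was not tested. No member was called under any alternative in the other comparisons.

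Values near 0 that were not called changed sign. Under the alternatives that kept every embryo or males alone, the members' median ran from -0.24 to 0.024 in rightward mutants and from -0.086 to 0.042 in wild types. In wild-type males, log2 right over left was 0.11 for *Slc8a1*, 0.047 for *Atp2a2*, 0.037 for *Cacna1c*, -0.18 for *Casq2* and 0.15 for *Jph2*. Without the replicate block it was -0.0098 for *Casq2* and 0.034 for *Jph2*. In males with rightward looping it was -0.19 for *Ryr2*, -0.063 for *Atp2a2*, 0.24 for *Casq2*, -0.34 for *Jph2* and -0.26 for *Hrc*. When 1 wild type was left out, the ranges were -0.20 to 0.41 (*Ryr2*), -0.53 to 0.23 (*Slc8a1*), -0.16 to 0.080 (*Atp2a2*), -0.46 to 0.037 (*Cacna1c*), -0.36 to 0.12 (*Pln*), -0.18 to 0.51 (*Casq2*), -0.40 to 0.36 (*Jph2*) and -0.12 to 0.54 (*Hrc*). When 1 mutant with rightward looping was left out, they were -0.0855 to 0.17 (*Ryr2*), -0.23 to 0.034 (*Slc8a1*), -0.025 to 0.063 (*Atp2a2*), -0.32 to 0.11 (*Casq2*), -0.28 to 0.11 (*Trdn*), -0.13 to 0.14 (*Jph2*) and -0.093 to 0.19 (*Hrc*). In the inverted group they were -0.0225 to 0.43 (*Pln*) and -0.46 to 0.24 (*Casq2*), and in the difference from the rightward group -0.22 to 0.23 (*Pln*) and -0.34 to 0.35 (*Casq2*).

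Counts over all genes moved more. In the inverted group 468 calls became 1755 in DESeq2, 942 with no filter, 53 in males, 305 without the replicate block, 141 in the fit of all libraries, and 222, 181 and 138 without embryo 4_6, 18_2 and 32_2. In rightward mutants 6 became 31 in DESeq2, 1 in males, 1 without the replicate block, 2 without 1_6, 3_7, 17_1, 18_1, 19_6, 22_1 or 32_3, 3 without 23_3 and 8 without 19_4, and in wild types 0 became 19 in DESeq2 and at most 2 elsewhere. The comparisons of levels, with 6, 3, 3 and 2 calls, gave 20, 84, 6 and 16 in DESeq2 and 0 to 12 elsewhere. The 82 calls of the difference between mutants became 426 in DESeq2, 131 with no filter, 17 without the replicate block and 7 in males. They became 192 and 158 without 10_1 and 19_4, 20, 18 and 19 without 4_6, 18_2 and 32_2, and 49 to 54 without 3_7, 17_1, 18_1, 19_6, 23_3 or 10_3. The 135 calls of the difference from wild types became 885, 207, 7 and 3 under the same 4 alternatives. They became 641, 260 and 204 without 22_4, 2_7 and 19_4, 25 and 17 without 18_2 and 32_2, and 39 to 87 without 7_1, 8_1, 10_1 or 10_3. On data simulated for both mutant groups and their difference, DESeq2 made more false calls than edgeR, so its larger counts are less certain on those data. The simulated counts were drawn from edgeR's own fit, so this comparison of the tools is not neutral. A prior count of 0.5 moved no mean log2 ratio by more than its SD. Low counts limit *Pln* (12 to 40 in each library), *Casq2* (5 to 118) and single libraries of *Trdn* (lowest 5).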
